A study of Homo sapiens with 3 samples.

Results

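The subject here is the set of peaks whose centre lay in the span of an annotated pseudogene and in no protein-coding, lncRNA or small noncoding RNA gene. They were taken by position from 1 list of eCLIP peaks, with gene spans from NCBI RefSeq (GRCh38.p14), and numbered 599 of the 20907 peaks on chromosomes 1 to 22 and X. The whole list held 21031 peaks. In eCLIP, UV light links a protein to the RNA it touches, the protein is pulled down, and the RNA fragments on it are sequenced. The protein was the mouse pregnane X receptor (Pxr), a nuclear receptor that senses drugs and bile acids. It was expressed with an HA tag for 24 h by transfection of LS174T, a human colon adenocarcinoma line. The groups were 2 replicates of the PXR immunoprecipitate and 1 input library, all from cells transfected in the same way. The cells therefore hold human PXR where they express it, beside the mouse protein, and no library of untransfected cells was analysed here. The labels do not say whether the receptor or its tag was the target of the antibody in each immunoprecipitate.

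A pseudogene is in most cases a copy of a gene that is annotated as no longer coding for its protein. Membership here follows the annotation alone, which also gives a pseudogene biotype to ABO and ORAI1, whose symbols name no source gene. Many human pseudogenes arose when an mRNA was reverse transcribed and put back into the genome, so they lack the introns of the gene they came from, and highly expressed housekeeping genes have left many such copies. Others arose by duplication of a stretch of chromosome and keep the exon and intron structure. Copies can be nearly identical in sequence to their source gene, so a short read may match both, and the sources used here do not give how the aligner placed such reads. A peak in a pseudogene is therefore a place where reads were assigned, and the RNA they came from may be that of the source gene or of another copy. This holds for every value below. The sequences of the pseudogenes were not used here.

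The list is 1 set of peaks without values of single libraries, so no value has a replicate error and no test between groups was possible. The fold of a peak is the authors' ratio of the reads at the summit to a background, and 2.66 was the lowest and 48.2 the highest among the 599. As recovered below, that background follows the reads in the 10 kb around the summit, its own included, as in FTLP2 with 85 of 85. A fold is therefore not read here as enrichment over the input. It is high where the 10 kb holds few other reads, and it stays below 50. The reads at each summit were recovered as the whole number that gives both the deposited fold and the deposited p-value, together with the number of reads in the 10 kb around the summit. The background seems to have a floor, near 14 reads per 10 kb on the plus strand. MTCO2P24 and RPS20P14, with 6 and 14 reads there, gave the same background. For isolated shallow peaks the reads of the 10 kb can therefore be overstated. The reads are the depth at 1 position and not a sum over a gene. The deepest of several summits can still be higher in a gene with more peaks. The recovery worked for all 599 peaks and for 21028 of the 21031 in the list. Intervals of reads are exact Poisson intervals at 95%, intervals of shares are Wilson intervals at 95%, and both cover counting error only, since PCR copies are not independent molecules. As a check of the labelled cell line, 9 of 10 colon epithelial markers held a peak, with up to 1147 reads, against 0 of 6 hepatocyte markers, 1 of 5 blood markers (CD74, 6 reads) and 1 of 5 fibroblast and endothelial markers (COL1A2, 10 reads). Among all coding genes 41.7% held a peak centre, so low counts in such short lists say little. Peaks also show RNA in the pull-down and not expression as such.

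Peaks in pseudogenes were shallower at the summit than peaks in coding genes, which make up 92.2% of the list, and about as deep as the peaks in lncRNA genes or in no gene. Their surroundings held few reads. The median was 14 reads at the summit (quartiles 9 and 23) for the 599 peaks, against 21 (14 and 35) for the other 20308. Among those, it was 22 in coding genes, 14 in lncRNA genes and 12 in no gene. In the surrounding 10 kb the median was 32 reads for pseudogene peaks, against 127 in coding genes, 52.5 in lncRNA genes and 22 in no gene. The median fold was 7.85 (quartiles 6.25 and 11.3) in pseudogenes and 5.94 (4.77 and 7.71) in the other peaks. For peaks in coding genes it was 5.93, for those in lncRNA genes 5.66 and for those in no gene 6.96. A fold of 20 or more was reached by 45 of the 599 (7.51%), against 271 of the other 20308 (1.33%) and 1.51% of all peaks. In coding genes 1.03% reached it, in lncRNA genes 4.55% and in no gene 8.78%. Fewer than 10 reads lay at the summit of 173 pseudogene peaks (28.9%), against 8.46% of peaks in coding genes, 28.6% in lncRNA genes and 36.9% in no gene. These differences were not tested, because peaks of 1 list are not replicates.

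The median width of the pseudogene peaks was 225 bases, against 264 bases in the rest. Peaks of at most 202 bases, where 200 bases is the narrowest width and was taken as the length given to 1 read, made up 138 of the 599 (23.04%), against 17.5% in coding genes, 36.9% in lncRNA genes, 58.1% in no gene and 19.2% of all peaks. In 24 pseudogene peaks (4.01%) every read of the 10 kb lay under the summit, against 0.405% in coding genes, 4.17% in lncRNA genes and 13.2% in no gene. Peaks with fewer reads than the floor of the background could not be counted this way, so these shares are lower limits. The deepest of the 24 lay in FTLP2, a copy of the ferritin light chain gene FTL, with 85 of 85 reads, and in RPS18P12, with 48 of 48. Strands were nearly even, with 305 plus-strand and 294 minus-strand peaks.

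**Figure D1:**
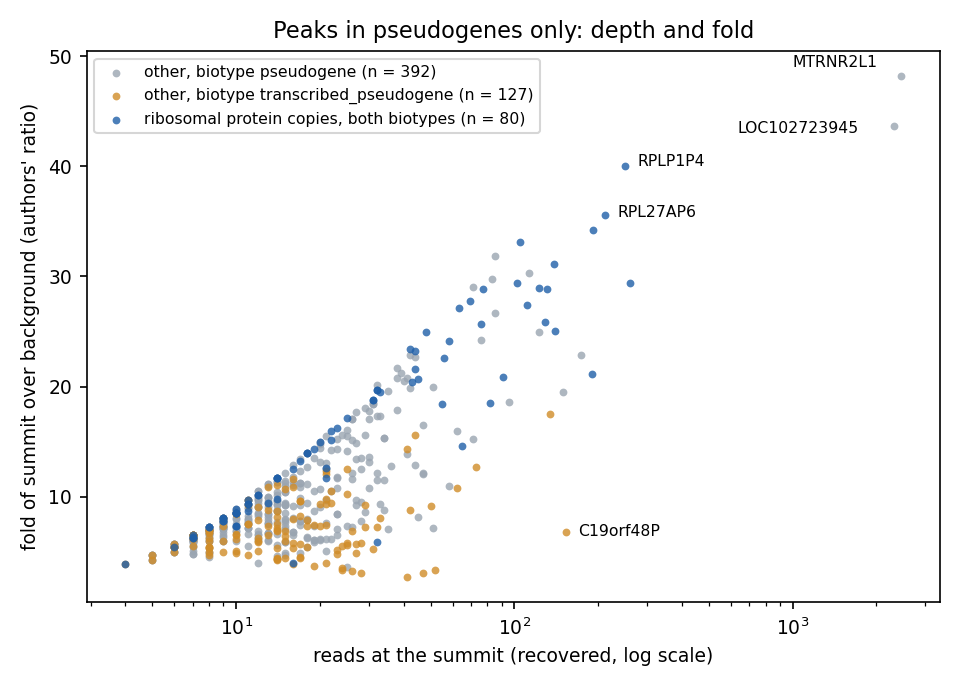
Reads recovered at the summit (log axis) and the authors' fold for each of the 599 peaks in pseudogenes only, 1 point per peak, coloured by kind of pseudogene. Many ribosomal protein copies (80 peaks) lie along the upper edge, where most reads of the 10 kb are under the summit, while C19orf48P has 153 reads at a fold of 6.76.

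The 599 peaks lay in 473 different pseudogenes, where a peak over several was given to the shortest, as happened in 37 peaks. This is 2.87% of the 16458 pseudogenes on these chromosomes. Among coding genes 41.7% held a peak centre, and among lncRNA genes 6.26%. In all, 1040 peaks had their centre in a pseudogene span, of which 343 also lay in a coding gene, 97 in a lncRNA gene but no coding gene and 1 in a small noncoding RNA gene alone, and these are not among the 599. With them, 5.16% of pseudogenes held a peak centre. Only 7 of the 599 touched such a gene with any base. Within 1000 bases of a coding gene lay 14 peaks, and 449 were more than 10 kb from any, with a median distance of 31281 bases over all 599. The 14 near ones had a median of 13 reads at a fold of 7.76, and 4 of the 12 whose neighbour's strand was known lay on that strand. Of the 473 pseudogenes 371 held 1 peak, 82 held 2, 16 held 3 and 4 held 4. Where a pseudogene held more than 1, all lay on the same strand in 99 of 102 cases. The exceptions were CROCCP2, FAM185BP and LOC101929240.

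The deepest and highest peak lay in MTRNR2L1, a nuclear copy of the mitochondrial 16S ribosomal RNA gene, on chromosome 17 from 22524410 to 22524636 (hg38) on the plus strand. Its summit held 2453 reads (2357 to 2552) of the 2494 in its 10 kb, at a fold of 48.2. On the mitochondrial chromosome RNR2, the gene of that RNA, had a summit of 70362 reads. Another copy, MTRNR2L12 on chromosome 3, held 113 reads (93.1 to 136) at a fold of 30.3, and MTRNR2L10 on the X chromosome held 6 and 5 reads in peaks of 200 bases. With 1 peak of 6 reads in MTCO2P24, these were all 5 peaks in pseudogenes of mitochondrial sequence, in 4 of 479 such pseudogenes (0.835%, 0.325 to 2.13%). A further 4 of the 479 had peaks only where a coding gene or another class overlapped them.

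Next came a peak in LOC102723945, on chromosome 16 from 636555 to 636797 on the minus strand, with 2320 reads (2227 to 2416) at a fold of 43.6. The annotated span of LOC102723945 is 278678 bases, and the peak lay 250 bases from the coding gene METTL26. Part of the peak, though not its centre, overlapped a lncRNA or small noncoding RNA gene, which was not identified here. The only other peak assigned to LOC102723945, at 588056 to 588282, held 5 reads. Below these 2, no peak in a pseudogene exceeded 261 reads, and 19 exceeded 100.

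Copies of ribosomal protein genes made up most of the other tall peaks. Ribosomal proteins are the protein parts of the ribosome, and their genes are among those with the most processed copies. The copies held 80 of the 599 peaks (13.4%, 10.9 to 16.3%). They are 12.2% of all pseudogenes on these chromosomes, a share within that interval. Of the 45 peaks with a fold of 20 or more they held 26. Copies of large-subunit genes had 51 peaks with a median fold of 12.5 and 17 reads, and copies of small-subunit genes had 29 with a median fold of 18.4 and 42 reads. Over all 599 peaks the medians were 7.85 and 14 reads. Most copies, however, held no peak. A peak lay in 50 of 1306 large-subunit copies (3.83%, 2.92 to 5.01%) and 27 of 696 small-subunit copies (3.88%, 2.68 to 5.59%). Among all 8121 pseudogenes named after a coding gene the share was 4.77%, which lies within both intervals.

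The deepest ribosomal copy was RPL13AP5, annotated as transcribed, on chromosome 10 from 96750268 to 96750817 on the plus strand, with 261 reads (230 to 295) at a fold of 29.4. RPLP1P4, a copy of a gene for a stalk protein of the large subunit, lay on chromosome 2 from 176200814 to 176201205 on the minus strand and had 249 reads (219 to 282) at a fold of 40.1. RPL27AP6 on chromosome 6, from 153282253 to 153282751, held 212 reads at a fold of 35.6. Each of these peaks covered most of its pseudogene, with widths of 550, 392 and 499 bases in spans of 658, 513 and 506 bases. Among small-subunit copies RPS12P22 held 139 reads at a fold of 31.1 and RPS27AP16 held 105 at 33.1. RPL13P12 had 190 reads at a fold of 21.1, in a peak 698 bases wide.

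Copies of genes for glycolysis, translation, cytoskeleton and RNA handling had the highest shares with a peak among the 12 lists, each from 25 pseudogenes or fewer. Their peaks lay in spans with medians of 1393 to 1672 bases. For peaks in large-subunit and small-subunit ribosomal copies the median spans were 593 and 522 bases, and shares were not compared at equal span. Glycolytic genes break down glucose, and 11 of 110 of their copies held a peak (10.0%, 5.68 to 17.0%). GAPDHP65 on the X chromosome had 123 reads (102 to 147) at a fold of 25.0, and TPI1P1 on chromosome 1 had 96 reads at 18.6, in peaks 681 and 737 bases wide. Copies of translation factor genes, which guide initiation and elongation on the ribosome, held a peak in 17 of 175 (9.71%, 6.15 to 15.0%). EEF1DP1 had 51 reads at a fold of 7.18 and a further peak of 25 reads. PABPC1P4, a copy of the poly(A)-binding protein gene, had 47 reads at 16.6.

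Copies of genes for actin, tubulin, keratins and other filament proteins held a peak in 25 of 263 (9.51%, 6.52 to 13.7%). ACTBP2 on chromosome 5, a copy of the beta-actin gene, had 2 peaks on the plus strand, of 174 reads (149 to 202) at a fold of 22.8 and of 149 reads at 19.5. ACTBP11 on chromosome 1 had 83 reads at 29.8, and 91 reads in its 10 kb. Copies of the keratin genes of simple epithelia, KRT8 and KRT18, had shallower peaks. KRT18 had 67 copies, of which 5 held a peak, with at most 18 reads, and KRT8 had 52, of which 4 did, with at most 27 reads. The source genes themselves reached 721 and 1147 reads.

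Copies of genes for hnRNP, SR and related RNA-handling proteins, which package and splice RNA, held a peak in 24 of 253 (9.49%, 6.46 to 13.7%). HNRNPKP4 on chromosome 3 had peaks of 62 reads at a fold of 16.0 and of 47 at 12.2, and HNRNPA3P6 had 51 reads at 20.0. RBM39P1, on the X chromosome, held 3 peaks of 44, 29 and 18 reads. Chaperone genes, whose proteins fold other proteins, had a peak in 17 of 228 copies (7.46%, 4.71 to 11.6%). Among them HSP90AB3P had 71 reads at 15.2, and PPIAP22, a copy of the cyclophilin A gene, had peaks of 34 and 30 reads. The intervals of the glycolysis, translation, cytoskeleton and RNA-handling lists lay above 4.77%, the share among pseudogenes named after a coding gene. That of the chaperone list reached just below it, with its lower bound at 4.71%. The lists also hold pseudogenes whose symbol gave no source gene, such as HSP90AB3P, and the 4.77% leaves these out.

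The remaining lists lay near or below that share. Copies of genes for chromatin and nuclear proteins held a peak in 12 of 367 (3.27%, 1.88 to 5.63%), led by PTMAP5, a copy of the prothymosin alpha gene, with 71 of the 74 reads in its 10 kb, and by ANP32BP1 with 44 reads. Ferritin and TPT1 copies held a peak in 3 of 61 (4.92%, 1.69 to 13.5%). FTLP2 and FTLP3 had 85 reads each (67.9 to 105), at folds of 31.9 and 26.7, and TPT1P4 had 38. Zinc finger pseudogenes had a peak in 3 of 87, with at most 17 reads in ZNF767P and 15 in ZNF37BP, both in spans of over 20 kb. None of 3427 copies of small RNA genes, such as those of U6, 7SL and Y RNA, held a peak centre, which allows a share of up to 0.0875% by the limit of 3 counts for a count of 0 (Wilson upper bound 0.112%). These copies have a median span of 109 bases, less than the narrowest peak, and 3 were overlapped by any base of a peak. The 12 lists together held 224 of the 599 peaks (37.4%).

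**Figure D2:**
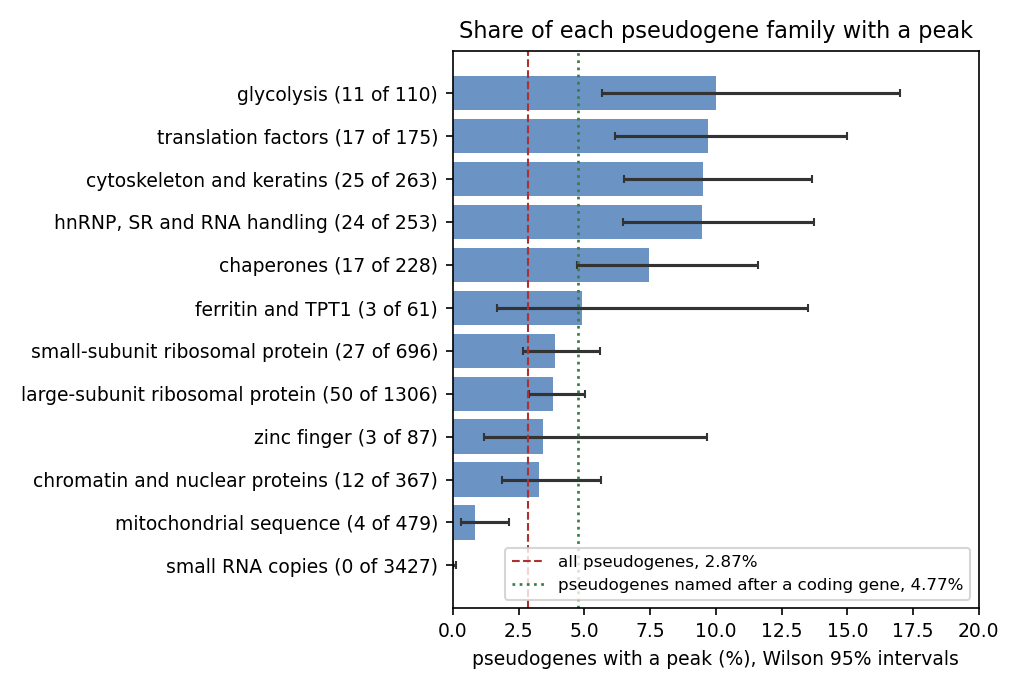
Share of the pseudogenes of each list that held at least 1 peak in no other class of gene (bars, %), with Wilson 95% intervals (lines); the dashed line is the share among all pseudogenes (2.87%) and the dotted line that among pseudogenes named after a coding gene (4.77%). Glycolysis (10.0%), translation, cytoskeleton and RNA-handling copies lie to the right of both lines, and small RNA copies are at 0.

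Pseudogene peaks mostly had a source gene that was itself in the list. From the symbol (RPL3P4 from RPL3, for example) a coding gene could be named for 482 of the 599 peaks, and the other 117, among them 54 with a LOC symbol, were left out of what follows. The source gene held a peak for 431 of the 482 (89.4%, 86.4 to 91.9%). Counted once each, 279 of 312 source genes did (89.4%, 85.5 to 92.4%), against 1516 of the 2263 coding genes with a named copy (67.0%, 65.0 to 68.9%) and 41.7% of all coding genes. The deepest peak of the source gene lay on the strand of that gene in 236 of the 237 cases where the strand was known. The strands of the pseudogenes were not used here.

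Copies with a peak were more frequent where the source gene was deeper. Of 1868 copies whose source gene had no peak 40 held one (2.14%, 1.58 to 2.90%), and of 1485 copies with a source summit of 1 to 19 reads 29 did (1.95%, 1.36 to 2.79%). The share was 5.34% (4.45 to 6.38%) at 20 to 49 reads, 6.39% (5.21 to 7.82%) at 50 to 99 and 9.62% (7.74 to 11.9%) at 100 to 199. At 200 or more it was 8.33% (6.27 to 11.0%), so the last 2 classes did not differ beyond their intervals. Without ribosomal protein copies the shares were 2.10%, 2.05%, 6.28%, 8.02%, 13.7% and 8.44% in the same order. Copies of 1 source gene share its sequence, so they are not independent.

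**Figure D3:**
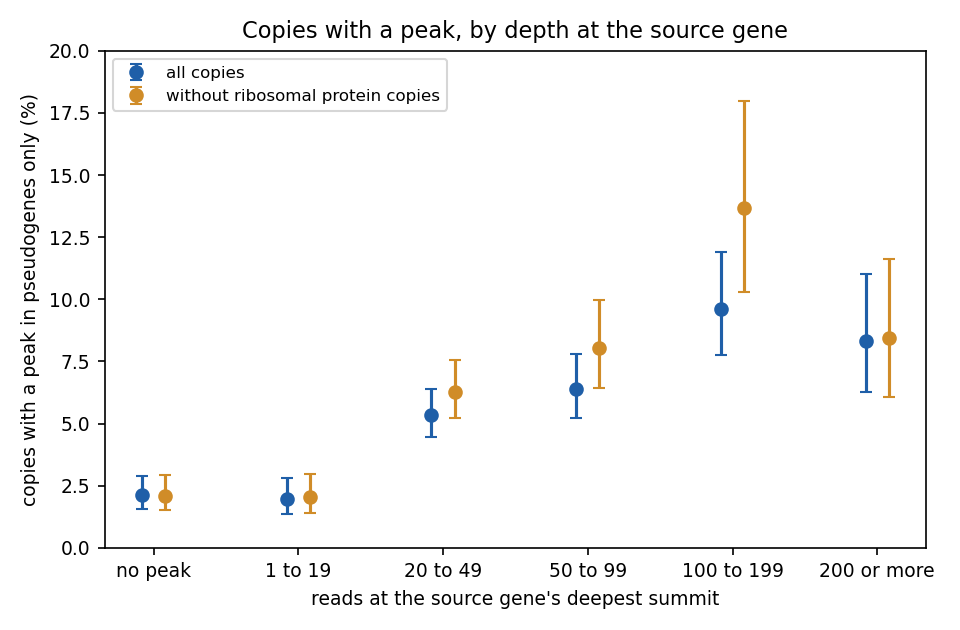
Share of copies with a peak in pseudogenes only (%, with Wilson 95% intervals), by the reads at the deepest summit of the source gene, for all copies and without ribosomal protein copies. The share is near 2% where the source gene has no peak or under 20 reads, and between 5.34% and 9.62% for all copies above that.

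Source genes were mostly deeper than their copies. Among the 279 source genes with a peak, the deepest summit of the source had a median of 55 reads, and the deepest summit over its copies a median of 15. The deepest was taken over all peaks on each side, such as 22 in ANKRD11, so unequal numbers of peaks bear on this comparison. The copy reached a median of 28.7% of the source's reads (quartiles 17.0% and 52.2%). The source was deeper in 255 cases, with intervals that did not overlap in 189, and the copy was deeper in 23. Across the 279 pairs the Spearman correlation of the depths was 0.46, a description in which both members share the libraries and may share reads.

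In 6 source genes with a peak the copy was deeper with intervals apart, and all 6 code for ribosomal proteins. They were chosen for this difference, which is given as a description. RPS28P7 on chromosome 11 had 131 reads (110 to 155), against 13 (6.92 to 22.2) in RPS28. RPS27AP16 had 105 reads (85.9 to 127), against 43 (31.1 to 57.9) in RPS27A, and RPS7P1 had 76 (59.9 to 95.1), against 33 (22.7 to 46.3) in RPS7. RPL27AP6 had 212 reads, against 117 in RPL27A, and RPL13AP5 had 261, against 172 in RPL13A. Each copy also had the higher fold, with RPL13AP5 at 29.4 and RPL13A at 10.4, for example. The deepest copies of GAPDH and ACTB lay far below their source. GAPDHP65 had 123 reads against 1137 in GAPDH, and ACTBP2 had 174 against 986 in ACTB.

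**Figure D4:**
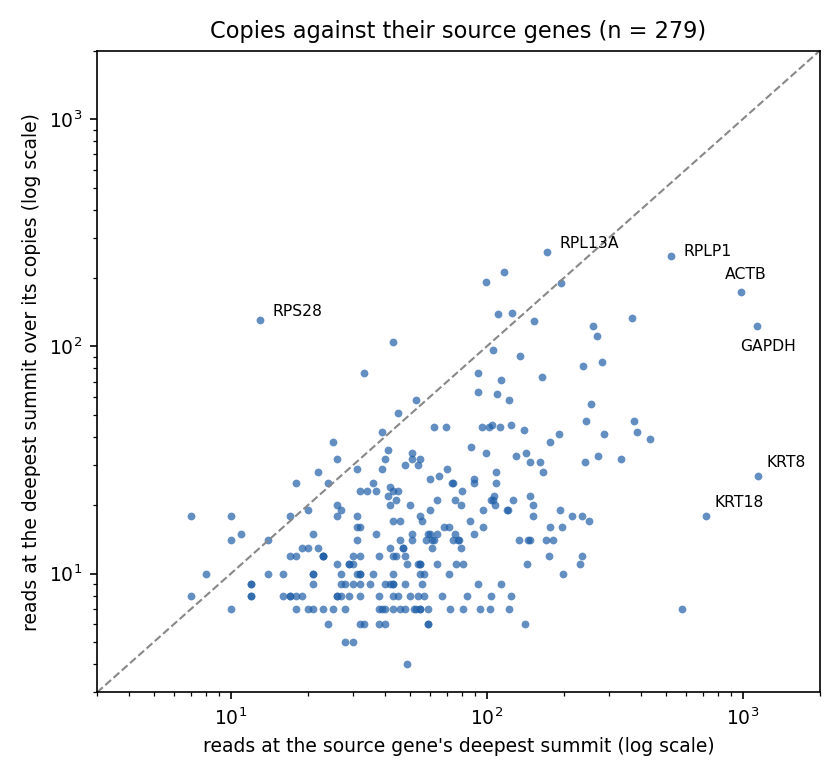
Reads at the deepest summit over the copies of a gene (vertical, log axis) and at the deepest summit of the source gene (horizontal, log axis), 1 point for each of 279 source genes; the dashed line marks equal depth. Most points (255) lie below the line, and RPS28 and RPL13A are among the 23 above it.

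For 33 source genes a copy held a peak and the source gene held none on these chromosomes. These copies had a median depth of 11 reads. The deepest among them included RPS9P2 on chromosome 22 with 69 reads (53.7 to 87.3) at a fold of 27.8, EEF1DP1 with 51 reads and RPS18P12 with 48. RPS9, EEF1D and RPS18 are widely expressed genes of the translation machinery, and a gene without a peak is not thereby a gene without RNA. The sources used here do not say what was done with reads that match several places in the genome.

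Several copies of the same gene were sometimes in the list. Of the 312 source genes 57 had more than 1 copy with a peak, and 12 had at least 3. KRT18 and SMG1 led, with 5 each. SMG1 codes for a kinase of nonsense-mediated mRNA decay, and its copies with a peak lie on chromosome 16 in spans of 27037 to 68707 bases. Of 7 copies 5 held 8 peaks of 7 to 29 reads, against at most 31 reads in SMG1 itself. Others with 4 copies were ACTB and KRT8, and with 3 among others GAPDH, HNRNPK, RPL3, YBX1 and EEF1D.

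Pseudogenes annotated as transcribed held 131 of the 599 peaks, in 87 of 1246 such pseudogenes (6.98%), against 468 peaks in 386 of 15212 (2.54%) for the others. Their peaks were of similar depth to the others, with medians of 15 and 13 reads, but lower in fold, with medians of 6.47 (quartiles 5.26 and 8.36) and 8.45 (6.63 and 12.2). They lay in much longer spans, with a median of 19844 bases against 1405, and in more crowded surroundings, with 59 against 27 reads in the 10 kb. Among them C19orf48P on chromosome 19 had the widest of all pseudogene peaks, 1307 bases with 153 reads (130 to 179) out of 1089 in its 10 kb, and a fold of 6.76. The 3 peaks of ARHGAP27P1 held 52, 47 and 41 reads at folds of 3.33, 3.05 and 2.66, with 738 to 746 reads in their 10 kb.

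The 4 pseudogenes with 4 peaks each differed in length. DUXAP9 on chromosome 14, a copy of a homeobox gene in a span of 45121 bases, had 4 plus-strand peaks of 62, 50, 21 and 14 reads. CROCCP2 on chromosome 1, in a span of 27216 bases, had 3 minus-strand peaks of 28, 26 and 24 reads and 1 plus-strand peak of 11 reads at its end. DGKZP1 had 4 plus-strand peaks of 19, 15, 14 and 12 reads in 3388 bases. LOC101929240 on chromosome 17 had 4 peaks of 12, 12, 11 and 7 reads in 1199 bases, 2 on each strand, and lies, like ARHGAP27P1, inside a longer read-through pseudogene.

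Fold was lower in longer pseudogenes, while depth at the summit was similar over the classes of length. The median fold was 9.80 in spans under 1 kb, 8.41 from 1 to under 2 kb, 7.34 from 2 to under 5 kb, 6.34 from 5 to under 20 kb and 6.47 from 20 kb upwards. Median reads at the summit in the same order were 13.5, 13, 15, 14 and 16, and median reads in the 10 kb were 19, 28, 37, 46 and 66. The Spearman correlation with span over the 599 peaks was -0.40 for fold and -0.0029 for reads. In the shortest class the summit held a median of 71.4% of the reads of its 10 kb, against 22.9% in the longest. Only 168 of 10442 pseudogenes under 1 kb held a peak (1.61%), and 43 of 574 of 20 kb or more (7.49%). The shortest class includes copies of small RNA genes, 3427 in all with a median span of 109 bases, and none of these held a peak centre. A longer span also offers more positions for a peak centre.

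In spans under 3 kb the summits lay mostly in the inner part and more often towards the upstream end than the downstream end, read along the strand of the peak. Of the 440 such peaks 151 had the summit in the upstream 3rd part of the span, 204 in the middle part and 85 in the downstream part. The median position was at 0.435 of the span. A peak is at least 200 bases wide and needed only its centre in the span, and the median peak covered 22.6% of its span. How peak width bears on the few summits near the ends of short spans was not tested. The strand of the pseudogene was not used, so upstream means upstream for the RNA that gave the reads.

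**Figure D5:**
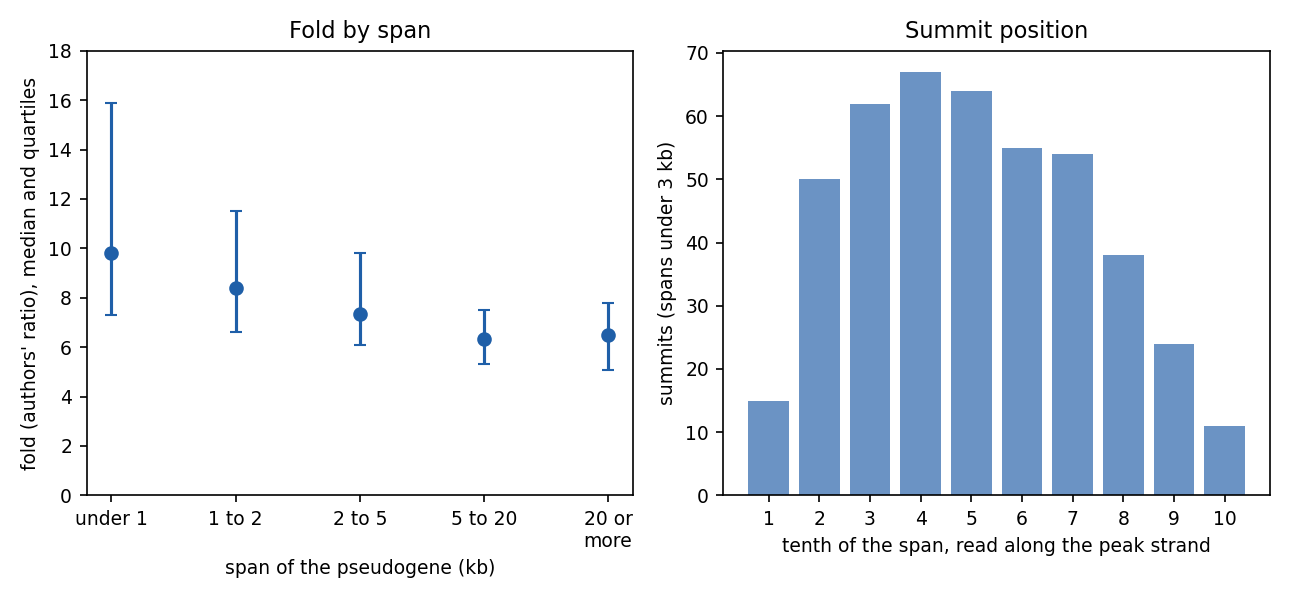
Left, median fold with quartiles for the 599 peaks by span of the pseudogene (kb). Right, number of summits in each 10th part of the span for the 440 peaks in spans under 3 kb, counted along the peak strand. Median fold is 9.80 in the shortest spans and 6.47 in the longest, and the fourth part holds the most summits, 67.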

How the data were processed

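The members and gene lists were chosen with earlier results of these data known. Per the submitters' processing notes, adapters were trimmed with cutadapt, reads aligned with BWA and peaks called with MACS2, on hg38; the sources used here give no versions, no settings and no word on pooling of the 2 immunoprecipitate replicates. The deposited score is 10 times the −log10 q, cut to a whole number, and was not used further. The deposited fold is the authors' ratio of summit to background, and the deposited −log10 p-value and q-value come from the peak caller the authors used. They describe and filter peaks within this list only. Peak starts were turned to counts from 1.

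Reads k at a summit and background b per 200 bases were recovered from fold = (k + 1)/(b + 1) and the Poisson p of more than k reads, within 0.0001 plus a 0.00001 part of −log10 p. Reads in 10 kb are 50 times b, to the nearest whole number, which is an upper limit where b is at its floor. Recovery was tested on values simulated from these same formulas. That does not test the formulas themselves, the floor or the reading of b as reads in 10 kb. Source genes were read from pseudogene symbols by removing P and what follows, against coding symbols, then synonyms. Pseudogenes were placed in 12 lists by source gene or symbol. Named are the 10 peaks with the highest fold, the 10 with the most reads, the 6 pseudogenes with the most peaks and the 2 deepest peaks of each list; the copies set against their source genes, those whose source had no peak, other copies named beside these and SMG1P copies were chosen after their values were seen. Python 3.11.15, numpy 2.4.6, pandas 2.3.3 and scipy 1.17.1 were used. Alternatives changed the rule of position, the significance, width and depth minimum, and the biotype. Some genes that these rules name are not reported here.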

Additional observations from a re-analysis of the deposited data

How the results depend on the processing

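Of 35 values, from 5 results under 7 alternatives, 12 moved past the interval of the value or, for the number of peaks, by over 1.5 times, and 23 did not. Placing peaks by their summit or by any overlap left all 5 results within these limits, with 602 and 603 peaks. With the whole peak required inside the pseudogene, 551 peaks were left and their ribosomal share was 10.3%. Keeping peaks at or above the list's median significance left 326 peaks with a median fold of 10.8, a median of 21 reads and a ribosomal share of 20.6%. Without the narrow peaks of at most 202 bases, 461 were left, the median fold was 8.96 and the median depth was 16 reads. With at least 10 reads, 426 were left, at 9.38 and 17.5 reads. With the biotype pseudogene alone, 448 were left, the median fold was 8.55, the ribosomal share 16.7% and the share of peaks whose source gene held a peak 92.1%. Depth limits the shallow peaks, 173 of which had fewer than 10 reads. No paired analysis was possible because the files hold 1 peak list with no column for a single replicate, and for the same reason no replicate could be left out.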
